A study of Homo sapiens with 4 samples.

Results

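Open chromatin inside very long genes was examined in HCT116, an established human colorectal carcinoma line. The members are the merged ATAC-seq peak regions that lie inside a RefSeq protein-coding gene of 500 kb or longer and more than 1000 bp from its ends, on chromosomes 1 to 22 and X of hg38. ATAC-seq marks open DNA as the places where the Tn5 transposase can insert. Of 122856 regions in all, 5492 (4.47%) met this rule, in or across 314 long genes of 19974 protein-coding genes. The rule used positions only and no measured value.

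The labels name 2 libraries of cells with pSin carrying FOXD2, which encodes a transcription factor of the forkhead family, as its full-length coding sequence, and 2 libraries of control cells with the empty pSin vector. Both vectors were delivered by lentivirus, both groups were kept under puromycin at 5 μg/ml, and per the labels' protocols 50000 cells were lysed. The sources used here do not give the vector's promoter, or whether the stable cells were a pool or a clone. The labels number the libraries but name no separate cultures, so p-values measure the spread between these libraries, which may be technical. A region is called open in a library where its peak list has an interval there. A gained region was open in FOXD2 replicates 1 and 2 and in no control, and a lost region was open in control replicates 1 and 2 and in no FOXD2 library. In bulk cells, a site open in fewer cells and a site less open in all cells cannot be told apart.

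The lists held 82739 and 64675 intervals in FOXD2 replicates 1 and 2, against 77752 and 72796 in control replicates 1 and 2, so FOXD2 replicate 2 had the shortest list. Read depth is unknown. The FOXD2 gene body itself overlapped 2 intervals in each FOXD2 library, against 2 and 1 in the controls, and reads from the vector's coding sequence cannot be told apart from genomic reads there. Of 9 colon epithelium markers, 8 had a peak at a gene end in all 4 libraries and 0 had none, VIL1 having it in 2 libraries. Of the markers of other cell types, 0 of 4 leukocyte, 0 of 3 endothelium, 1 of 4 fibroblast (COL1A2) and 3 of 4 neuron markers (RBFOX3, SNAP25 and SYT1) had such a peak in all 4 libraries. Their part in the results was not tested.

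Genes of this size consist almost wholly of intron. Many of them encode adhesion proteins, receptors and channels of neurons, and several span common fragile sites, stretches that replicate late and break under replication stress. Regulatory elements inside such introns can act on the gene itself or on its neighbours, and the start of an expressed gene is usually open, often over a CpG island, a stretch rich in the dinucleotide CG.

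The starts of 7 long genes are printed from RefSeq (GRCh38.p14), from 250 bases before to 50 bases after the annotated start, 5′ to 3′ on the gene's strand, with each CG in capitals. They are shown because they set open starts beside closed ones, and AUTS2 and ADGRB3 were chosen for their high CG counts among closed starts. The first are the starts of DLG2, encoding a synaptic scaffold, at chr11:85628324-85628623 on the minus strand, and of EXOC4, encoding a subunit of the exocyst that tethers secretory vesicles, at chr7:133252828-133253127 on the plus strand. Both starts were open in all 4 libraries, and both genes passed the test of interval numbers given further on.
DLG2: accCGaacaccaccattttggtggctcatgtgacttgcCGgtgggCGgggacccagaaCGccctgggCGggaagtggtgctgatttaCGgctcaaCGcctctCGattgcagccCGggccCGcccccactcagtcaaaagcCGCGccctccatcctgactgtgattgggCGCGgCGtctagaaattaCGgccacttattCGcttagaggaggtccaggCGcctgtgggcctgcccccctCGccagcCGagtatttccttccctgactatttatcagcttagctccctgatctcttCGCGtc
EXOC4: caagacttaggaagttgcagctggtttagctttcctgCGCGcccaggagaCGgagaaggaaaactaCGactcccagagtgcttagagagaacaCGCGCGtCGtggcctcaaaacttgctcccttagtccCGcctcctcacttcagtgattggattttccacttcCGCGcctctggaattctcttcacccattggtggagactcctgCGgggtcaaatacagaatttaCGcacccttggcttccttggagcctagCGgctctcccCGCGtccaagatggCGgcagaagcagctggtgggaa
The next are 2 open starts of genes at the extremes of region density. DOCK1, encoding an activator of the small GTPase RAC1, starts at chr10:126905178-126905477 on the plus strand and held many regions. SEMA5A, encoding a semaphorin that guides growing axons, starts at chr5:9546026-9546325 on the minus strand and held 0 regions.
DOCK1: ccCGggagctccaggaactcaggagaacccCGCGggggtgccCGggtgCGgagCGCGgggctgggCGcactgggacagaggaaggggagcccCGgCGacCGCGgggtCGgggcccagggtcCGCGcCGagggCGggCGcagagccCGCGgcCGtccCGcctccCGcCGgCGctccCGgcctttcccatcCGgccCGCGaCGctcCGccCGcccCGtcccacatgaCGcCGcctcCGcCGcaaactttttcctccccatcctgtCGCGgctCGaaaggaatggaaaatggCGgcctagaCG
SEMA5A: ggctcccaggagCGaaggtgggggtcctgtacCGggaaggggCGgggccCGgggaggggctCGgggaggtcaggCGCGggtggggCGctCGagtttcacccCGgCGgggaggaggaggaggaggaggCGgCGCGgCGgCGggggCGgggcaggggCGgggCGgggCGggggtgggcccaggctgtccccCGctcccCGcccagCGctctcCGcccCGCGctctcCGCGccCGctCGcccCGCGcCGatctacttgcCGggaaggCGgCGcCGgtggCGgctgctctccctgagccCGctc
The last are 3 starts that were closed in all 4 libraries, of genes with 0 regions. AUTS2, encoding a neuronal regulator of transcription, starts at chr7:69598225-69598524 on the plus strand. ADGRB3, encoding an adhesion G protein-coupled receptor of synapses, starts at chr6:68635032-68635331 on the plus strand. DMD, encoding dystrophin of the muscle membrane, has several annotated starts, and the outermost is printed, at chrX:33339339-33339638 on the minus strand. The next, 127839 bp farther in, was also closed in all 4 libraries.
AUTS2: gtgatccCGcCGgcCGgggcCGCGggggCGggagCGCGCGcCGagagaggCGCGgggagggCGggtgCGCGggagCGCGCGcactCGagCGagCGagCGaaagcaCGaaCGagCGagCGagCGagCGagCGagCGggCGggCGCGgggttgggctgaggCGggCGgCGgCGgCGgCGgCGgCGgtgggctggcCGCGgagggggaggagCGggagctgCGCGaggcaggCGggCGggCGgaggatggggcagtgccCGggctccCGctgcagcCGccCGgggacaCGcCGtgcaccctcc
ADGRB3: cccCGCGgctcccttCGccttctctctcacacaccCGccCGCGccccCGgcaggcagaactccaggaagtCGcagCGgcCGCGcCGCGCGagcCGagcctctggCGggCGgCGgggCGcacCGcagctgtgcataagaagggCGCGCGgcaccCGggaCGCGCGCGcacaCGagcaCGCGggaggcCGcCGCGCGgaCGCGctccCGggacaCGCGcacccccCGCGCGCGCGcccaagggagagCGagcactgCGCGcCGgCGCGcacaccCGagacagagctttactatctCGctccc
DMD: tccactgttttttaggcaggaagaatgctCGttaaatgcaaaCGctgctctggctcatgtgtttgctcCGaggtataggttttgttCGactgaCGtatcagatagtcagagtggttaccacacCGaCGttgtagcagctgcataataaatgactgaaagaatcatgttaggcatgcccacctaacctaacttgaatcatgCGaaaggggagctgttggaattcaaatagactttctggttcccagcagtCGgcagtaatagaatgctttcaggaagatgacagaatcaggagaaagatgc

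The CG counts of these 300-base windows were 22 at DLG2, 17 at EXOC4, 42 at DOCK1 and 39 at SEMA5A, all open, and 55 at AUTS2, 53 at ADGRB3 and 9 at DMD, all closed. Over all 613 annotated starts of the 262 long genes with a promoter sequence, 201 starts were open in all 4 libraries, with a median of 27 CG (quartiles 13 and 35). The 113 starts open in 1 to 3 libraries had a median of 21, and the 299 closed starts a median of 5 (quartiles 2 and 11). Of the closed starts of long genes, 36 (12.0%) held 20 or more CG, against 129 (64.2%) of the open ones. The same medians over the 22156 starts of all protein-coding genes with a sequence were 27 for 14085 open and 4 for 5716 closed starts.

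Searched on both strands, the forkhead motif TGTTTAC occurred in 5 of 201 open (2.49%) and 16 of 299 closed (5.35%) starts of long genes. Over all protein-coding genes with a sequence it occurred in 2.16% of open and 4.39% of closed starts, and in 632 of 22156 (2.85%) starts in all. The motif TATAAA, the core of the TATA box, occurred in 15 open (7.46%) and 45 closed (15.1%) starts of long genes, and in 4.90% of open and 20.3% of closed starts of all protein-coding genes, or 2097 (9.46%) in all. Windows were counted for each motif separately and could hold both, and none of the 7 printed windows held either. Starts of 1 gene often lie close together and share bases, so they are not independent.

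**Figure D1:**
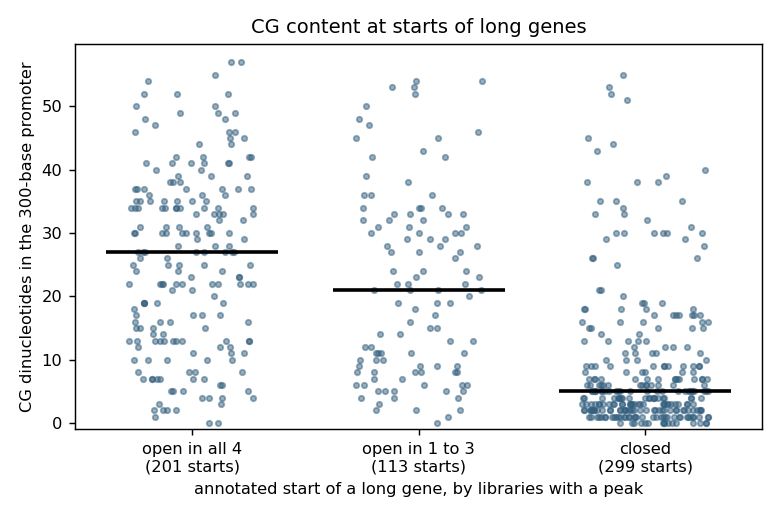
CG dinucleotides (vertical axis, count) in the 300-base window of each annotated start of a long gene, grouped by whether the start had a peak in all 4 libraries, in 1 to 3 or in none; points are starts and bars are medians. The medians are 27, 21 and 5, and a few closed starts lie above 50.

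Long genes held open regions at a lower density than shorter genes. Their median was 1.75 regions per 100 kb (quartiles 0.591 and 3.43), against 3.82 in 3037 genes of 100 to 500 kb and 4.93 in 10965 genes of 10 to 100 kb. Counted over the summed length of each class, the densities were 2.11, 4.57 and 6.06 regions per 100 kb. The order was the same in each library. FOXD2 replicates 1 and 2 had 1.29 and 0.857 intervals per 100 kb inside long genes, and the controls 1.14 and 1.06. In genes of 100 to 500 kb these values were 2.91 and 2.13 in the FOXD2 libraries, and 2.53 and 2.38 in the controls.

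The long genes had a median length of 723 kb, and 69 were 1000 kb or longer, or 1 Mb. The median long gene held 13 regions and 33 genes (10.5%) held 0. Density varied widely, with 39 genes at or above 5 regions per 100 kb and 104 genes under 1. DNA copy number was not used here, and its part in the densities was not tested. The 31 genes with most regions held 32.6% of all region-gene pairs. A stretch with no region covered over 50% of the gene in 88 genes, and was longer than 500 kb in 81.

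The highest density was that of GSE1, encoding a coiled-coil protein of a histone deacetylase complex, with 91 regions or 18.0 per 100 kb (chromosome 16, 85169512 to 85676200). GSE1 had 59 and 49 intervals in FOXD2 replicates 1 and 2, and 65 and 61 in control replicates 1 and 2. Its longest stretch with no region was 21.9 kb. TRAPPC9, encoding a subunit of a vesicle tethering complex, followed with 12.8 regions per 100 kb. RBFOX3, encoding the neuronal splicing factor NeuN, had 11.3, DOCK1 11.2 and PTPRN2, encoding a receptor tyrosine phosphatase of secretory granules, 10.9. HIVEP3, encoding a zinc finger protein, had 9.86, AGAP1, encoding a GTPase-activating protein for ARF, 9.75, and ADARB2, encoding a catalytically inactive relative of the RNA-editing deaminases, 9.49.

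By number, PTPRN2 held most regions, 114 (chromosome 7, 157539056 to 158587823). It had 65 and 37 intervals in FOXD2 replicates 1 and 2, and 50 and 45 in control replicates 1 and 2. The ranges of the groups overlapped. TRAPPC9 held 93 regions, RANBP2, encoding a nuclear pore protein, 85, and CAMTA1, encoding a transcription factor, 72. SHANK2, encoding a synaptic scaffold, held 68, RAD51B, encoding a recombination repair protein, 65, and KAZN, encoding a desmosome-associated protein, 62. Some of these counts include sites of nested genes. The RefSeq span of RANBP2 holds 5 whole other protein-coding genes, that of GPHN, encoding the receptor scaffold gephyrin, 12, that of LRRC37A2 6 and that of ANXA8 4. Over all members, 58 (1.06%) lay at an end of another protein-coding gene, and 31 lay in 2 long genes, IQCJ-SCHIP1 and SCHIP1, which overlap.

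The longest stretch with no region was DMD, 2220 kb on chromosome X (31119222 to 33339388), with 0 intervals in all 4 libraries. The longest gene, RBFOX1, encoding a splicing factor of neurons and muscle (chromosome 16, 5239721 to 7713340), spans 2474 kb and held 12 regions, with 2060 kb between neighbouring regions or an end. The other longest genes with 0 regions were PCDH15, encoding a protocadherin of hair cells, DPP10, encoding a subunit of potassium channels, and LRRC4C, encoding a synaptic adhesion protein. They were followed by CSMD3, AUTS2, the axon guidance receptor gene ROBO1 and SGCZ, encoding a sarcoglycan of muscle.

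**Figure D2:**
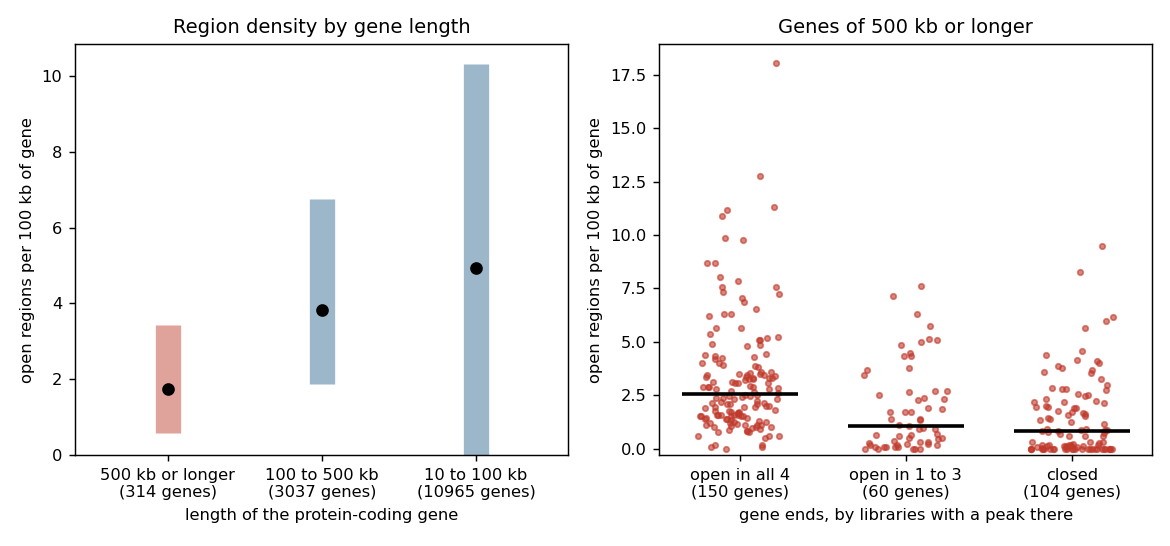
Open regions per 100 kb of gene (vertical axes). Left, median (point) and quartiles (bar) by gene length class, with 1.75 for genes of 500 kb or longer, 3.82 for 100 to 500 kb and 4.93 for 10 to 100 kb; right, each long gene by the state of its ends, with bars at the medians 2.57, 1.09 and 0.818.

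A larger share of long genes than of all protein-coding genes was closed at both ends. A gene end, here the 1000 bp to either side of either end, had a peak in all 4 libraries in 150 of 314 long genes (47.8%), against 65.5% of all protein-coding genes. It had a peak in no library in 104 long genes (33.1%), against 23.1% of all. The remaining 60 (19.1%) had it in 1 to 3 libraries. The open set had a median of 2.57 regions per 100 kb inside the gene, the set open in 1 to 3 libraries 1.09 and the closed set 0.818. The median of the longest stretch with no region was 143 kb in the open, 339 kb in the middle and 391 kb in the closed set.

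Where the strand is known, annotated starts separated the genes further. Here the outermost 5′ edge counted as a start, and different starts of a gene could be open in different libraries. The 152 genes with some open start in each of the 4 libraries had a median of 2.48 regions per 100 kb. A single annotated start was open in all 4 libraries in 137 long genes. The 55 genes with some open start in only 1 to 3 libraries had a median of 0.846, and the 55 genes whose starts were all closed had 0.167. Of the genes with closed starts, 20 held 0 regions, against 1 gene, SEMA5A, among those with an open start. Open ends and open interiors did not always go together. SEMA5A, 511 kb long, had an open start and 0 regions inside. ADARB2 was closed at both ends in all 4 libraries and yet held 53 regions, with 29 and 10 intervals in FOXD2 replicates 1 and 2, and 29 and 19 in control replicates 1 and 2. CACNA1C, encoding a voltage-gated calcium channel, was likewise closed at both ends and held 60 regions. A start of CACNA1C 82207 bp inside the gene's edge had a peak in 3 libraries.

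Along the genes, regions lay more densely toward the 3′ end. In 238 genes with a known strand and a region, the first 10% of the gene length at the 5′ side held 9.69% of regions, and the last 10% held 15.0%. Per gene, in the 163 genes with 10 or more regions, the median share was 7.69% in the first and 13.8% in the last of these parts. The last part held more in 101 of these genes, the first in 44, and 18 had equal numbers. Gained and lost regions were unevenly split there, with 10 gained and 33 lost in the last 10%, and 38 gained and 22 lost in the 10% before it. These counts were noticed among 10 parts and were not tested.

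Most members lay far from an annotated start of their own gene. Of the regions in genes with a known strand, 306 (6.91%) lay within 10 kb of such a start, 1210 (27.3%) at 10 to 100 kb and 2912 (65.8%) farther. The share open in all 4 libraries was 31.4% within 10 kb, 21.4% at 10 to 100 kb and 19.2% beyond.

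Members were narrower and ranked lower than other regions, and a smaller share was open in all 4 libraries. Their median width was 312 bp, against 334 bp inside other genes and 873 bp at gene ends. In all 4 libraries 1086 members (19.8%, 95% Clopper-Pearson interval 18.7 to 20.9) were open, and 2753 (50.1%, 48.8 to 51.5) were open in 1 library only. Inside other genes these shares were 25.3% (25.0 to 25.7) and 45.3% (44.8 to 45.7), and at gene ends 68.8% and 16.8%. The intervals cover counting error only. Within each list the median member ranked at percentile 37.4 and 38.2 by the authors' −log10 q in FOXD2 replicates 1 and 2, and at 37.4 and 38.1 in control replicates 1 and 2. Inside other genes the medians were 44.2 and 43.3 in the FOXD2 libraries, and 43.6 and 43.7 in the controls.

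The strongest members open in all 4 libraries stood mostly over the ends of nested genes. Of the 5 highest, 2 lay inside GPHN (chromosome 14, 67359663 to 67360741 and 67619443 to 67620341), 1 inside LRRC37A2 (chromosome 17, 46922689 to 46923592) and 1 inside RANBP2 (chromosome 2, 108786240 to 108787200), all 4 at an end of another protein-coding gene. The authors' −log10 q at the first of these was 95.5 and 83.7 in FOXD2 replicates 1 and 2, and 134 and 107 in control replicates 1 and 2. The fifth lay inside STK3, encoding a kinase of the Hippo pathway, at no end of another gene, with −log10 q of 98.9 and 68.4 in the FOXD2 libraries and 115 and 109 in the controls. No start of STK3 was given, so whether this region lies at a start of STK3 itself could not be checked. These values rank peaks within a list and are not compared between lists.

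The share of a library's intervals that fell inside long genes did not separate the groups. It was 4.03% and 3.44% in FOXD2 replicates 1 and 2, and 3.82% and 3.76% in control replicates 1 and 2, so both controls lay between the FOXD2 libraries. The mean was 3.74% ± 0.418 with FOXD2 and 3.79% ± 0.0395 in controls (SD, n = 2 each), a difference of −0.0564 percentage points. The two-sided exact permutation test gave p = 1, where the smallest p that 2 against 2 libraries allow is 0.333. The sign of this difference turned to 0.239 without FOXD2 replicate 2, and to 0.110 with genes of 300 kb or longer.

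Gained and lost members were nearly equal in number. With FOXD2, 245 members were gained (4.46%, Clopper-Pearson interval 3.93 to 5.04) and 249 were lost (4.53%, 4.00 to 5.12). Over all regions 3.89% were gained and 3.87% lost, so both shares were slightly above the background. Inside other genes the shares were 4.72% gained and 4.19% lost. In genes of 100 to 500 kb, 1438 regions (5.40%) were gained and 1135 (4.26%) lost. The difference between length classes was not tested. Leaving out a library relaxes both definitions. Gained members then numbered 640 and 1274 without FOXD2 replicates 1 and 2, and 375 and 356 without control replicates 1 and 2. Lost members numbered 553 and 332 without FOXD2 replicates 1 and 2, and 872 and 1019 without control replicates 1 and 2. Gained members ranked at a median percentile of 37.4 and 32.4 in FOXD2 replicates 1 and 2, and lost members at 33.2 and 28.6 in control replicates 1 and 2. Members in all 4 libraries ranked at 66.0 and 55.6 in the FOXD2 libraries and at 64.2 and 62.2 in the controls.

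Of the 314 long genes, 133 held a gained and 137 a lost region, 79 held both and 123 held neither. Gained exceeded lost regions in 83 genes and the reverse held in 89, with a balance of gained minus lost between −6 and 6. The genes with most changed regions had many regions in all. RAD51B had 4 gained and 5 lost, and PTPRN2 and RBFOX3 each had 3 gained and 5 lost.

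**Figure D3:**
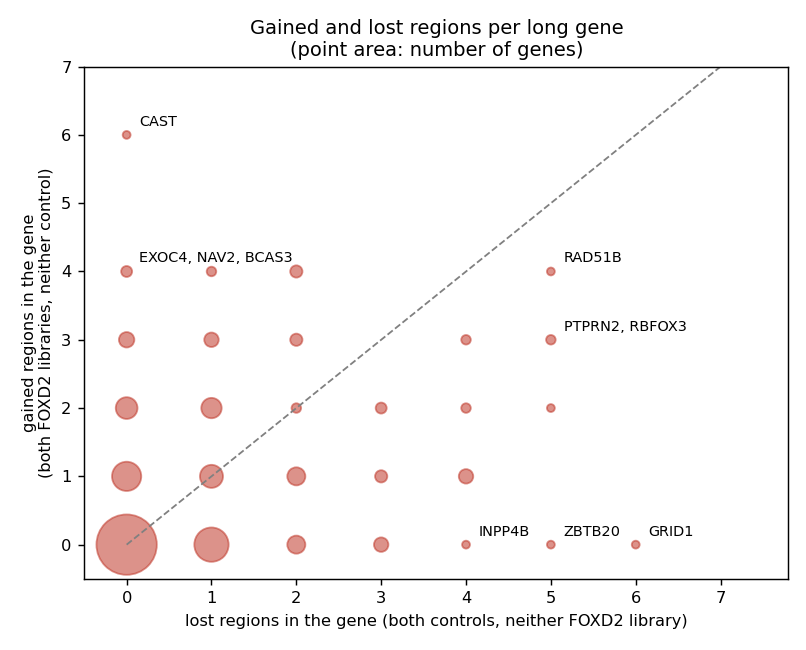
Gained (vertical axis) and lost (horizontal axis) regions per long gene, with point area for the number of genes and a dashed line at equal numbers. Most genes lie near 0, CAST has 6 gained and 0 lost, and GRID1 has 0 gained and 6 lost.

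The balance tipped furthest to gained regions in CAST, which encodes calpastatin, the inhibitor of calpain proteases (chromosome 5, 95961429 to 96774683). CAST held 6 gained and 0 lost of 36 regions, with 29 and 23 intervals in FOXD2 replicates 1 and 2, against 16 and 16 in control replicates 1 and 2. CAST was named for this balance, so its interval numbers are no separate support. The strongest of the 6, at chromosome 5, 96572656 to 96573285, had −log10 q of 16.7 and 18.4 in FOXD2 replicates 1 and 2. Annotated starts of CAST lay 572 bp inside its 5′ edge and again from 700608 to 782173 bp inside it. All 6 gained regions lay between the first of these starts and the next, at 700608 bp. The RefSeq span of CAST holds 1 whole other protein-coding gene. Without any 1 library the balance of CAST was 6 to 12. The definitions are then relaxed and gained regions stay gained, so only newly lost regions could lower it. EXOC4, NAV2, encoding a protein of growing neurites, and BCAS3, encoding a cytoskeletal and autophagy protein, each held 4 gained and 0 lost regions. NRG1, encoding a ligand of ERBB receptors, held 3 and 0, with 9 and 10 intervals in the FOXD2 libraries and 4 and 6 in the controls.

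NAV2 (chromosome 11, 19345236 to 20121601) also held the strongest gained member of all, at 19919224 to 19919625, with −log10 q of 26.3 and 27.6 in FOXD2 replicates 1 and 2. The next gained members lay inside PRKCE, encoding protein kinase C epsilon (chromosome 2, 46097657 to 46098140), ZFHX3, encoding a homeobox and zinc finger factor (chromosome 16, 73082571 to 73083026), MAGI1, encoding a tight junction scaffold (chromosome 3, 65995064 to 65995415), and KALRN, encoding a guanine nucleotide exchange factor (chromosome 3, 124620583 to 124621057). NAV2 had 35 and 28 intervals in the FOXD2 libraries, and 23 and 21 in the controls. Without control replicate 2 its balance was 1 and that of BCAS3 was 0.

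The balance tipped furthest to lost regions in GRID1, which encodes a delta-type glutamate receptor (chromosome 10, 85599552 to 86366795), with 0 gained and 6 lost of 50 regions. Its interval numbers overlapped between groups, with 26 and 18 in FOXD2 replicates 1 and 2, and 26 and 25 in control replicates 1 and 2, and its balance turned to 3 without FOXD2 replicate 2 and was −11 without control replicate 2. ZBTB20, encoding a zinc finger repressor (chromosome 3, 114314500 to 115147288), held 0 gained and 5 lost regions, with 21 and 17 intervals in the FOXD2 libraries and 30 and 32 in the controls. The balance of ZBTB20 was between −13 and −3 without 1 library, where lost regions stay lost and only newly gained regions could raise it. INPP4B, encoding a phosphoinositide phosphatase, held 0 gained and 4 lost, and NAV3, a relative of NAV2, 0 and 3.

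The strongest lost member lay inside PRKCE (chromosome 2, 45945824 to 45946516), with −log10 q of 20.6 and 23.1 in control replicates 1 and 2. PRKCE thus held both a leading gained and the leading lost member, and 4 gained and 1 lost region in all. The next lost members lay inside SEMA3A, encoding a secreted semaphorin (chromosome 7, 84412080 to 84412897), CDKAL1, encoding a tRNA-modifying enzyme (chromosome 6, 21000232 to 21000787), PDE1C, encoding a phosphodiesterase (chromosome 7, 31782464 to 31782740), and SYT1, encoding a calcium sensor of synaptic vesicles (chromosome 12, 78928521 to 78928861).

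**Figure D4:**
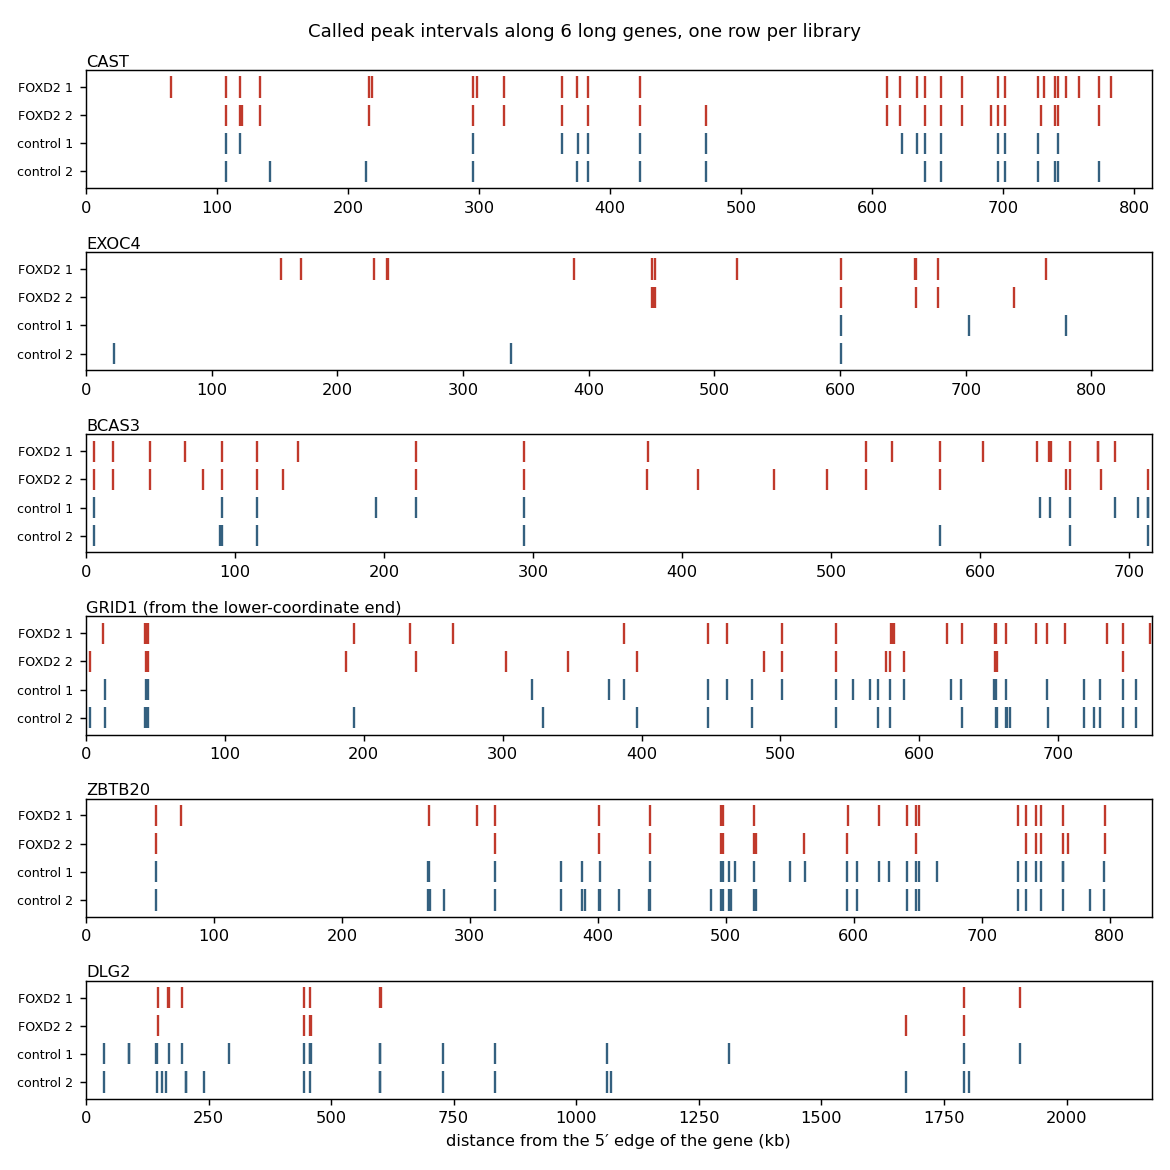
Called peak intervals (ticks) along 6 long genes in each library, FOXD2 rows above control rows; the horizontal axes give the distance in kb from the 5′ edge of the gene, or for GRID1 from the lower-coordinate end. CAST, EXOC4 and BCAS3 carry ticks that are in both FOXD2 rows and in neither control row, and GRID1, ZBTB20 and DLG2 the reverse.

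Interval numbers per gene were compared with limma on log2 of the intervals plus 0.5 per 10000 intervals of the library, fitted over 3352 protein-coding genes with a mean of 3 or more intervals per library. By Benjamini-Hochberg adjusted p under 0.05, 10 of all genes tested (0.298%) were called, 5 higher (0.149%) and 5 lower (0.149%) with FOXD2. Of the 227 long genes tested, 3 were called, 2 higher and 1 lower. At an unadjusted p under 0.05 there were 50 long genes, 21 higher and 29 lower, beside 10.8% of all genes tested (6.24% higher and 4.56% lower). The median SE of the log2 change was 0.28 in long genes and 0.32 over all genes. The median log2 change was −0.02 in long genes and 0.04 over all genes tested.

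EXOC4 (chromosome 7, 133253078 to 134100951) rose in interval number. It had 14 and 7 intervals in FOXD2 replicates 1 and 2, against 3 and 3 in control replicates 1 and 2. Its log2 change was 1.62 (SE 0.31, limma adjusted p = 0.00987, higher in 2 of 2 FOXD2 libraries). Of its 20 regions 1 was open in all 4 libraries and 15 were open in a single library. The 4 gained regions formed a pair at 133703557 to 133703860 and 133705634 to 133705923 and a pair at 133913231 to 133913625 and 133931098 to 133931431.

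DLG2 (chromosome 11, 83455012 to 85628373) fell, with 10 and 6 intervals in FOXD2 replicates 1 and 2, against 20 and 18 in control replicates 1 and 2. Its log2 change was −1.20 (SE 0.24, limma adjusted p = 0.0186). The 3 lost of its 30 regions lay far apart, at 84564640 to 84564894, 84899773 to 84899993 and 85590854 to 85591205. Of the 30 regions 17 were open in a single library. RBFOX1 rose, with 10 and 6 intervals in FOXD2 replicates 1 and 2, against 2 and 3 in control replicates 1 and 2 (log2 change 1.52, SE 0.32, limma adjusted p = 0.0252). Only 1 of its 12 regions was gained, at chromosome 16, 5653127 to 5653583, and 8 were open in a single library. This gained region was the last before the 2060 kb with none.

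The next long genes by p did not pass the threshold in this fit, but INPP4B passed it in 7 and BCAS3 in 8 of 16 alternatives, beside 6 of 15 for RBFOX1. INPP4B had 10 and 8 intervals in FOXD2 replicates 1 and 2, against 22 and 16 in control replicates 1 and 2 (log2 change −0.99, SE 0.23, limma adjusted p = 0.0502). BCAS3 had 21 and 19, against 13 and 8 in the controls (log2 change 0.98, SE 0.23, limma adjusted p = 0.0502). CAST (0.71, SE 0.18), ZBTB20 (−0.66, SE 0.16) and NAV2 (0.54, SE 0.15) had limma adjusted p between 0.0552 and 0.102.

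None of these 3 calls held in every alternative, and each was lost in some fits without 1 library. Such fits leave 1 library in a group. They are counted in the tallies of alternatives, but only their log2 changes are given here. Without control replicates 1 and 2 these were 1.57 and 1.66 for EXOC4, −1.17 and −1.22 for DLG2, and 1.23 and 1.81 for RBFOX1. Without FOXD2 replicates 1 and 2 they were 1.32 and 1.91, −1.36 and −1.03, and 1.35 and 1.69. The prior degrees of freedom, the weight given to the spread over all genes, also differed. They were 30.3 in the main fit, and 1.57 and 1.64 without control replicates 1 and 2. Their part in the calls was not tested. All 3 calls were lost with lists shortened to equal length. There EXOC4 had a log2 change of 1.88, DLG2 −0.999 and RBFOX1 1.02 (limma adjusted p = 0.394, 0.160 and 0.341 in that order). The directions of these 3 genes were the same in every alternative tried.

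**Figure D5:**
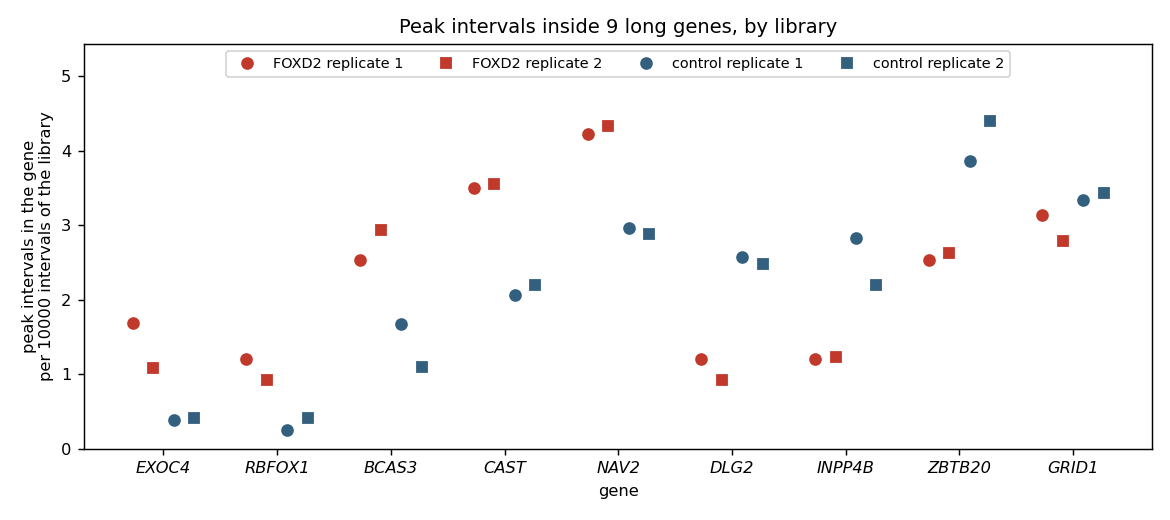
Peak intervals inside 9 long genes per 10000 intervals of the library (vertical axis), with FOXD2 libraries in red left of control libraries in blue and a point per library. EXOC4, RBFOX1, BCAS3, CAST and NAV2 lie higher and DLG2, INPP4B, ZBTB20 and GRID1 lower in each FOXD2 library than in each control on this scale, by little in GRID1. These 9 genes were named for their balance or their limma p, so the separation is no separate support.

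Lists of long genes by role describe how openness was spread. The lists name 222 different genes, of which 154 are long genes, and some genes stand in more than 1 list, as DLG2, RAD51B and CTNNA3 do. Counts are of regions or genes, with no test of the list. Gained and lost shares are to be read against 3.89% and 3.87% over all regions. Counts at an unadjusted p under 0.05 are to be read against 6.24% higher and 4.56% lower over all genes tested, and against 50 of 227 long genes in either direction.

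Genes of synaptic adhesion were mostly closed. Of 28 long members 15 were closed and 4 open at their ends, the median density was 0.555 regions per 100 kb, and 9 regions were gained and 13 lost of 371 (2.43% and 3.50%). The list was led by DLGAP2 with 61 regions and DLGAP1 with 44, both encoding scaffold proteins of synapses, TENM4, encoding a teneurin, with 40, and SDK1, encoding a sidekick adhesion protein, with 32. Of the 16 tested, 0 rose and 1 (DLG2) fell by limma, and at an unadjusted p under 0.05 there were 2 higher and 5 lower. Cadherin and protocadherin genes resembled them in openness, with 6 of 10 closed, 1 open and a median of 0.447. CDH4 with 49 regions and CDH13 with 31 encode cadherins, and CTNNA3 with 27 and CTNND2 with 9 encode catenins. They had 4 gained and 7 lost of 125 regions (3.20% and 5.60%), and 0 of the 5 tested passed, with 0 at an unadjusted p under 0.05.

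Axon guidance and growth factor genes had the lowest median of the lists, 0.164, with 9 of 18 closed and 4 open. SLIT3, encoding a guidance ligand, led with 36 regions, 0 gained and 3 lost. SORCS3, encoding a sorting receptor, had 3 gained and 0 lost regions, with 17 and 11 intervals in FOXD2 replicates 1 and 2, and 6 and 7 in control replicates 1 and 2 (log2 change 1.06, SE 0.27, limma adjusted p = 0.0651). FGF12 held 13 regions with 0 gained and 0 lost. The list had 6 gained and 5 lost of 114 regions (5.26% and 4.39%), and 0 of 5 tested passed, with 2 at an unadjusted p under 0.05, both higher.

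Ion channel and receptor genes had 6 gained and 18 lost of 279 regions (2.15% and 6.45%), of which GRID1 held 6 of the lost. Their median density was 1.55, with 7 of 16 open and 4 closed. CACNA1C had 1 gained and 3 lost regions, KCNMA1, encoding a potassium channel, 2 and 2, and RYR3, encoding a calcium release channel, 0 and 0. Of 12 tested, 0 passed and 2 had an unadjusted p under 0.05, both lower. Transcription factor genes also had fewer gained than lost, 5 and 16 of 262 regions (1.91% and 6.11%), with ZBTB20 holding 5 of the lost. CAMTA1 had 2 gained and 1 lost region, GLIS3 1 and 3, and AFF3 0 and 2. The median density was 1.69, 7 of 17 were open and 6 closed, and 0 of 9 tested passed, with 2 at an unadjusted p under 0.05, both lower.

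Genes of vesicle traffic, organelles and other broad functions ran the other way, with 30 gained and 12 lost of 509 regions (5.89% and 2.36%). Of 18 long members 17 were open at an end and 1 closed, and the median density was 2.91. TRAPPC9 had 3 gained and 2 lost regions, RAD51B 4 and 5, GPHN 2 and 0, and BCAS3 and EXOC4 each 4 and 0. BCAS3 and EXOC4 are among the genes named for most gained regions on balance. Of 17 tested, 1 (EXOC4) rose and 0 fell by limma, with 3 at an unadjusted p under 0.05, all higher. Summed over the list there were 334 and 214 intervals in FOXD2 replicates 1 and 2, against 252 and 236 in control replicates 1 and 2, so the sums overlapped between groups. Intracellular signalling genes had the highest median density of the lists, 3.58, with 13 of 17 open and 3 closed. They had 24 gained and 22 lost of 465 regions (5.16% and 4.73%), among them 4 and 2 at DOCK1, 4 and 1 each at PRKCE and PRKCA, which encode protein kinase C forms, and 3 and 4 at PARD3, encoding a cell polarity scaffold. Of 17 tested, 0 passed, with 2 higher and 2 lower at an unadjusted p under 0.05.

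Common fragile site genes were mostly open at their ends, 13 of 19 against 4 closed, yet had a median of 0.951 regions per 100 kb. They had 18 gained and 24 lost of 318 regions (5.66% and 7.55%). CTNNA3 had 27 regions with 1 gained and 4 lost, and 14 and 11 intervals in FOXD2 replicates 1 and 2, against 14 and 13 in control replicates 1 and 2 (log2 change −0.08, SE 0.23, limma adjusted p = 0.944). Of 17 tested, 1 (DLG2) fell and 0 rose, with 1 higher and 3 lower at an unadjusted p under 0.05.

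Cytoskeleton and muscle genes had a median of 3.11 and 14 gained and 19 lost of 243 regions (5.76% and 7.82%), with 4 and 0 at NAV2, 1 and 4 at MYO16, encoding an unconventional myosin, 2 and 3 at FRMD4A and 1 and 1 at KIF26B, encoding a kinesin. Of 9 tested, 0 passed, with 1 higher at an unadjusted p under 0.05. Receptor tyrosine phosphatase genes had 8 gained and 8 lost of 181 regions (4.42% each), with 2 and 1 each at PTPRM and PTPRG, 1 and 1 at PTPRK and the rest at PTPRN2. Of 3 tested, 0 passed and 0 had an unadjusted p under 0.05. The 4 long genes of RNA binding proteins had 5 gained and 5 lost of 93 regions (5.38% each), most of them at RBFOX3. CELF2 and RBMS3 held 8 regions each.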

How the data were processed

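Per the labels' protocols, nuclei were tagged with Tn5. The submitters' processing notes list MACS2 2.2.7.1, bedtools, Bowtie2 2.3.4.1, cutadapt 3.4 and Picard, and the build hg38, with no role or setting given. The deposited file of each library is a list of peak intervals. Each interval carries the authors' fold enrichment, a ratio within its library, the deposited −log10 p and −log10 q, and a score from the authors' peak caller that was not used. No read counts were used, so depth is unknown, and intervals on shares cover counting error only.

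Intervals on chromosomes 1 to 22 and X were merged where they overlapped by 1 bp or more. Between 0.208% and 0.251% of each list lay on other contigs and was left out. Genes and promoters came from RefSeq (GRCh38.p14), which gives strand and starts for 262 of the 314 long genes. Exon, intron and UTR positions were not used here.

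Interval numbers per gene were fitted with limma 3.58.1 (R 4.3.3, trend), and the share test was an exact permutation test over the libraries. Both were tested on simulated data. Clopper-Pearson intervals were computed with SciPy 1.17.1. Python 3.11.15, NumPy 2.4.6, pandas 2.3.3 and Matplotlib 3.10.9 were used. Named genes are the 10 with most regions, the 8 densest, the 8 sparsest, the 5 with most gained and the 5 with most lost on balance, the 5 with the smallest limma p, and up to 4 of each role list by number of regions; some of these are not reported here. Named regions are the 5 gained, 5 lost and 5 shared ones with the highest lower percentile of −log10 q. Genes named for their promoter or end state alone, and ANXA8, LRRC37A2 and VIL1, were chosen after their values were seen. The members and lists were chosen with earlier results of these data known.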

Additional observations from a re-analysis of the deposited data

How the results depend on the processing

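The median density was 1.35 regions per 100 kb where peaks needed a −log10 q of at least 5, 1.38 with lists of equal length, and 1.48 to 1.67 without 1 library. With genes of 300 kb or longer there were 12195 members, 604 gained and 541 lost, a density of 2.58, 449 genes with an open end, a difference in share of 0.110 and 5 calls by limma. With genes of 1 Mb or longer there were 1091 members, 39 gained and 48 lost, a density of 0.689 and 22 genes with an open end. Requiring −log10 q of 5 or more in both libraries left 158 gained and 168 lost members. Without 1 library, gained members numbered 356 to 1274, lost members 332 to 1019, and the difference in share ran from −0.352 to 0.239, turning sign without FOXD2 replicate 2.

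The limma count of 3 long genes was the least stable value. It was 9 with −log10 q of 5 or more, 5 with summit windows and with 5000 bp from gene ends, 8 without intervals at ends of other genes (chosen after seeing the data), and 14 both with a pseudocount of 2 and when scaled to intervals inside genes. It was 0 with lists of equal length, a mean of 1 or more intervals, centring on the median, or covered base pairs. The prior degrees of freedom were 30.3 in the main fit. They ran from 0.742 with lists of equal length to unbounded values (pseudocount of 2, scaling inside genes, replicate block, and without either FOXD2 library). Among fits on all 4 libraries, values of 12.4 or less went with 0 calls, or 2 with a mean of 10 or more intervals (11.3). Values of 22.4 to 41.7 went with 3 to 9 calls, and unbounded values with 14 to 17. EXOC4 was called in 8 of 15 alternatives, DLG2 in 9 of 16, RBFOX1 in 6 of 15, INPP4B in 7 of 16 and BCAS3 in 8 of 16, each with 1 sign. These tallies count the fits without 1 library among the alternatives. With the replicate block limma called 17 long genes. The difference in share cannot change with that block. Same-numbered libraries share only a number, and their deviations correlated over genes at 0.0383. The cause of these shifts was not tested. Weak sites below the authors' threshold are in no list.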
